A study of Mus musculus with 8 samples.

Results

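The genes described here are 10 members of the BCL2 family of cell death regulators. They comprise the survival genes Bcl2, Bcl2l1 and Mcl1, the BH3-only genes Bcl2l11, Bid, Bad, Bbc3 and Pmaip1, and the effector genes Bax and Bak1. They were taken by name and by no threshold on these data, though with earlier results of the series known. DNA methylation in and around them was read by reduced representation bisulfite sequencing (RRBS), which sequences CpG-rich restriction fragments after bisulfite conversion. The 8 libraries came from I1DN leukaemic progenitors, sorted as cKit positive and Cd11b negative cells of transplanted mice, with 2 libraries in each of 4 groups. The treatments were Vehicle, AG120 alone, AZA alone and AG120 with AZA, called the combination. AG120 is ivosidenib, which blocks the mutant IDH1 enzyme, and AZA is azacitidine, a nucleoside analogue that traps DNA methyltransferases in DNA. All groups shared the I1DN background and a time of 5 days per the labels, which do not spell out the alleles behind the name I1DN, a dose or an age. They do not say whether the 2 libraries of a group came from separate mice, so p-values measure the spread between these libraries, which may be technical.

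Each gene and 2000 bp on either side were cut into 5 stretches, called units. These were both gene ends (1000 bp outside to 500 bp inside), the rest of the gene between them, and both outer flanks, which run from the ends out to 2000 bp. The end that holds the annotated transcription start is called the start end. Methylated and unmethylated reads of all CpG cytosines in a unit were summed per library, and the level is the percentage of these reads that were methylated. Of 32 member units with a covered position, 18 had 20 or more reads in every library, and each of the 10 genes had at least 1 such unit. Over all genes of the mouse table, 34574 units of 22480 genes passed. Coordinates are mm10 (GRCm38.p6), from 1, with gene ends from RefSeq, and exon and intron annotation was not used here.

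BCL2 family proteins meet at the outer mitochondrial membrane. Bcl2, Bcl2l1 (BCL-xL) and Mcl1 hold the effectors Bax and Bak1 in check, the BH3-only proteins Bcl2l11 (BIM), Bid, Bad, Bbc3 (PUMA) and Pmaip1 (NOXA) bind them or the effectors, and active Bax and Bak1 open the membrane and release cytochrome c. Many acute myeloid leukaemias depend on Bcl2 or Mcl1, and azacitidine is given together with a Bcl2 inhibitor in this disease. Promoters rich in CpG are usually free of methylation, and azacitidine lowers methylation as DNA is copied. The series asks what both drugs together do to DNA methylation, and the family is a place where a methylated promoter would silence either a survival gene or a death gene.

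The start ends that passed the read minimum, those of 6 of the 10 genes, carried little methylation. The 250 bases before the start given in the RefSeq promoter table (GRCm38.p6) are shown for 5 members. For Bid this start (chr6:120916824) lies inside the gene, which is bounded here at 120917062, so most of its stretch is inside the gene. These 5 are the members whose start end passed the read minimum and whose promoter window in that table held a covered position. They are ordered from the highest mean level of the start end (Bak1, 9.73%) to the lowest (Bcl2l11, 0.674%), 5′ to 3′ on the gene's own strand, and capitals mark each CpG with a read in at least 1 library.
Bak1 (chr17:27028628-27028877, minus strand): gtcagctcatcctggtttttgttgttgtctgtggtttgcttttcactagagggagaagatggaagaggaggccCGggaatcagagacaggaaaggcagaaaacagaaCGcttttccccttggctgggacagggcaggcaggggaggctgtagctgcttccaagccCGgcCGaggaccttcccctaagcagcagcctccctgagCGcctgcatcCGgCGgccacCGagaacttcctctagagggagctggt
Bid (chr6:120916825-120917074, minus strand): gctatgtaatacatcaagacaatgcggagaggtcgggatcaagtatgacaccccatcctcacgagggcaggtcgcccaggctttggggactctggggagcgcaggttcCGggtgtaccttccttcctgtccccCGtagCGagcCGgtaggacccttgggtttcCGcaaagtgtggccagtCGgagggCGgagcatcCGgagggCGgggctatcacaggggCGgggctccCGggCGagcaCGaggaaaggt
Bad (chr19:6941611-6941860, plus strand): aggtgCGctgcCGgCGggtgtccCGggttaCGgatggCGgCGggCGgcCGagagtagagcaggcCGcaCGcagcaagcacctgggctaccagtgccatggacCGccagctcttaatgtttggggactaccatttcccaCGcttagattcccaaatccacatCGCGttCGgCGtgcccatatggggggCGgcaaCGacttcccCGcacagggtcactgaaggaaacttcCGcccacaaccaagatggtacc
Bcl2 (chr1:106714291-106714540, minus strand): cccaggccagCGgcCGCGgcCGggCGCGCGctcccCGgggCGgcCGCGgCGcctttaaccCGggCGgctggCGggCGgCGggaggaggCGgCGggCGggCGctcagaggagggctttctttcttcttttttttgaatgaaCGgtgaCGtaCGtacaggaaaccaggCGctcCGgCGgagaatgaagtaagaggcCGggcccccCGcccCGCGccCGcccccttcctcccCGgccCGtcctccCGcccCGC
Bcl2l11 (chr2:128125788-128126037, plus strand): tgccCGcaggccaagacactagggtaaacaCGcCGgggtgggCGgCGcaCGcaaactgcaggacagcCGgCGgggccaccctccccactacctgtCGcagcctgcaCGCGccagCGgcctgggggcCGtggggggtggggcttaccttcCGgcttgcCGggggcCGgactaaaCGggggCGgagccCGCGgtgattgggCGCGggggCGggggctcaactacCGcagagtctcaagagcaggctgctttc

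All 36 CpG of the Bcl2 stretch were read, as were the 24 of Bcl2l11, the 21 of Bad and the 8 of Bak1, against 13 of 18 for Bid. CCGG, the site cut by MspI, an enzyme commonly used in RRBS, occurred 6 times before Bcl2, 5 times before Bcl2l11, 4 times before Bid, 3 times before Bak1 and 2 times before Bad. The motif reads the same on both strands. Among all 32619 RefSeq promoter windows of 300 bp (250 before to 50 after a start) 53.1% held it. Windows with it had 20 or more reads in every library in 37.2% of cases and windows without it in 0.00654%. The 9 members in that table, all but Pmaip1, had 15 windows, of which 13 held a CCGG and 10 passed. The Bax window (chr7:45466849-45467148) held none and no covered position. Among 6452 windows that passed, the median level was 1.52%, and 89.1% lay under 20%.

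All 6 start ends that were measured, those of Bcl2, Bcl2l11, Bid, Bad, Bax and Bak1, had a mean level under 20%, with a median of 1.24%. Among 9862 start ends of all genes the median was 2.01% and 82.7% lay under 20%. Inside the genes the members differed widely, from 0.631% over the rest of Mcl1 to 81.1% over the rest of Bak1 and 86.2% over the rest of Pmaip1. The median of the 8 measured rests was 8.66%, against 61.7% for 15861 rests of all genes. The start ends of Bcl2l1, Mcl1 and Bbc3 as RefSeq bounds these genes did not pass, and for these genes RefSeq promoter windows rich in CpG lay inside the rest.

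**Figure D1:**
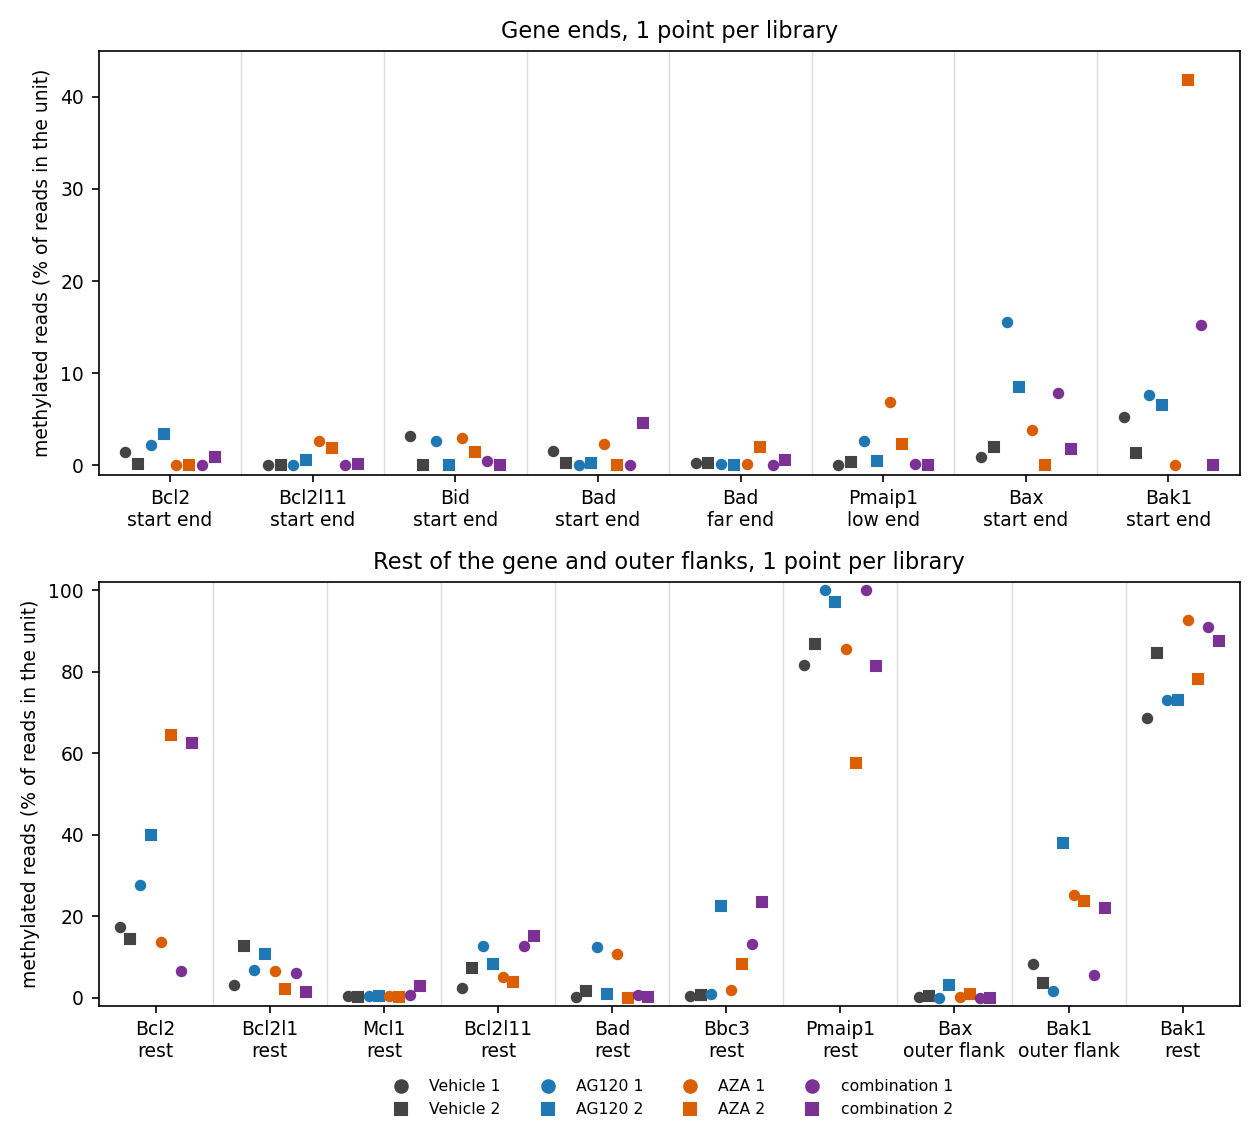
Methylated reads (% of all reads in the unit, y axis) of the 18 measured units of BCL2 family genes (x axis), 1 point per library, with the group as colour and the replicate as shape. Gene ends are above and the rest of each gene and the outer flanks below. The gene ends lie near 0 except for Bax and Bak1, where single libraries reach 15.6 and 41.8%, and the rests of Pmaip1 and Bak1 are above 50% in every library.

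No member unit differed between groups beyond the test's threshold. The edgeR quasi-likelihood test, run over all 34574 units with p adjusted by Benjamini and Hochberg, called 0 of the 18 member units in each of 8 contrasts. These were 5 pairs of groups, each drug as a factor (the 4 libraries that had it set against the 4 that had not) and the interaction. It called 0.0% of all units too. At an unadjusted p under 0.05 there were 0 member units for AG120 against Vehicle (3.66% of all units), 1 for AZA against Vehicle (2.54%), 3 for the combination against Vehicle (5.53%) and 2 for the combination against AZA (5.18%). There were 0 for the combination against AG120 (4.47%), 3 for AG120 as a factor (5.33%), 1 for AZA as a factor (3.69%) and 1 for the interaction (3.21%). The 3 units for the combination against Vehicle and for AG120 as a factor were the rests of Mcl1, Bcl2l11 and Bbc3. The others were the start end of Bcl2l11 (AZA against Vehicle), the rest of Bcl2l11 and the low end of Pmaip1 (combination against AZA), the start end of Bcl2 (AZA as a factor) and the low end of Pmaip1 (interaction). Limma also called 0 member units and 0 units in every contrast. In the combination against Vehicle the edgeR likelihood ratio test called 1.88% of all units and 0 member units. DESeq2 called 2.35% there and 1 member unit, the rest of Bbc3 (DESeq2 adjusted p = 0.0417), and 0 member units in the 7 other contrasts.

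Bcl2, the survival gene of the family's name, had a nearly unmethylated start end (chr1:106713791-106715290, 154 positions). Its level was 1.46 and 0.167% in the Vehicle libraries (replicates 1 and 2, in this order throughout), 2.26 and 3.39% with AG120, 0.0301 and 0% with AZA, and 0.0146 and 0.871% with the combination. The 0% of AZA replicate 2 rests on 937 reads, which allow up to 0.320% (3 counts of the total, as for every such limit here). Both AG120 libraries stood above both Vehicle libraries. Both AZA libraries read below them, but the limit of AZA replicate 2 is above Vehicle replicate 2. The mean was 2.82% ± 0.796 (SD, n = 2) with AG120 against 0.812% ± 0.911 in Vehicle (edgeR adjusted p = 1). The 4 libraries with AZA had 0.229% ± 0.429 (SD, n = 4) against 1.82% ± 1.35 in the 4 without it (edgeR adjusted p = 1), and these groups overlapped. In the 300 bp promoter window (chr1:106714241-106714540) the AG120 libraries were at 7.79 and 0%, the 0% on 130 reads. The Vehicle libraries were at 2.41 and 0.433% there, so AG120 and Vehicle overlapped in the window.

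The rest of Bcl2 (chr1:106538676-106713790), which also holds Mir3473f and Gm37053, was the most variable member unit. Levels were 17.2 and 14.3% in Vehicle, 27.7 and 39.9% with AG120, 13.7 and 64.6% with AZA, and 6.52 and 62.4% with the combination. The 2 libraries of AZA and of the combination differed from each other by more than the group means did. The 157 covered positions lay in 18 blocks, a block being a run of positions with no gap over 500 bp. Of these blocks 16 had a mean level of 50% or more, and they took between 6.55% (combination replicate 1) and 77.1% (AZA replicate 2) of the unit's reads. At the 52 positions with 10 or more reads in at least 1 library of both groups, the AZA mean was 18.5% and the Vehicle mean 18.4%.

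Bcl2l1 encodes BCL-xL. The start end bounded by RefSeq (chr2:152833304-152834803) held 3 positions, had 6 reads in combination replicate 1 and was not tested. The rest of the gene (chr2:152759232-152833303, 230 positions, with parts of Cox4i2 and Gm32211) stood at 3.09 and 12.8% in Vehicle, 6.70 and 10.7% with AG120, 6.44 and 2.14% with AZA, and 5.95 and 1.49% with the combination. Vehicle replicate 2 was the highest library, and both groups with AZA overlapped Vehicle. Most positions, 166, lay in 1 block inside the gene (chr2:152829550-152831680) with a mean of 3.96%. The RefSeq promoter window in that block (chr2:152830668-152830967) was at 0% in 6 libraries, at 10.1% in AG120 replicate 2 and at 0.140% in combination replicate 2, with 63 to 1863 reads.

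Mcl1, a short-lived survival protein on which many leukaemias depend, had the lowest level of the measured rests. All 305 positions of the unit (chr3:95657444-95662679) lay in 1 block of 1582 bp that holds a RefSeq start. Levels were 0.352 and 0.0451% in Vehicle, 0.374 and 0.469% with AG120, 0.340 and 0.106% with AZA, and 0.555 and 2.81% with the combination, on 4861 to 17739 reads. Every library with AG120 was above every library without it, though the lowest (0.374%) and the highest (0.352%) nearly touched. The means were 1.05% ± 1.17 and 0.211% ± 0.158 (SD, n = 4; edgeR adjusted p = 0.920). For the combination against Vehicle they were 1.68% ± 1.59 and 0.198% ± 0.217 (SD, n = 2; edgeR adjusted p = 0.875). At 193 positions with 10 or more reads in at least 1 library on both sides, the mean was 1.01% with AG120 and 0.332% without it. The 300 bp promoter window in the block (chr3:95658471-95658770) never exceeded 0.0911% in a library.

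Among the BH3-only genes, Bcl2l11 (BIM, which binds every survival member) had the lowest start end (chr2:128125038-128126537, 133 positions), a stretch that also overlaps Acoxl. Levels were 0.0648 and 0% in Vehicle, 0 and 0.581% with AG120, 2.69 and 1.89% with AZA, and 0 and 0.172% with the combination. The 0% values allow up to 0.164% (Vehicle), 0.364% (AG120) and 0.112% (combination). Both AZA libraries were above the other 6. The AZA mean was 2.29% ± 0.561 against 0.0324% ± 0.0458 in Vehicle (SD, n = 2; edgeR adjusted p = 1). Against AZA the combination, at 0.0859% ± 0.121, had an edgeR adjusted p of 0.959, and the interaction of the drugs one of 1. In the 300 bp window at the start itself the AZA libraries were at 0.438 and 0%, below their level over the whole end. At 46 positions read in both groups the AZA mean was 1.64% and the Vehicle mean 0.0191%. Of 368 values of single positions with 10 or more reads in this unit, 98.6% were at exactly 0 or 100%. A mean this low therefore rests on few positions. Over such positions the AZA libraries averaged 0.761 and 2.56%, on 74 and 78 positions.

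The rest of Bcl2l11 (chr2:128126538-128162047, 349 positions) was higher in every library with AG120 than in every library without it. Levels were 2.43 and 7.31% in Vehicle, 12.7 and 8.19% with AG120, 5.17 and 3.88% with AZA, and 12.8 and 15.2% with the combination. The means with and without AG120 were 12.2% ± 2.91 and 4.70% ± 2.07 (SD, n = 4; edgeR adjusted p = 0.815). For the combination they were 13.97% ± 1.68 against 4.87% ± 3.45 in Vehicle (edgeR adjusted p = 0.843) and 4.52% ± 0.912 with AZA (SD, n = 2; edgeR adjusted p = 0.927). Such a separation of 4 libraries from 4, higher with AG120, was seen in 2 of 18 member units, this one and Mcl1, and in 2.54% of all units.

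The difference in Bcl2l11 moved with the share of reads that fell in methylated parts of the gene. A dense block of 285 positions next to the start (chr2:128126538-128128234) was at 0.0972 to 1.73% in every library. Of the 6 other blocks, 5 had a mean level of 50% or more, with 56 positions together and midpoints 2818 to 27818 bp into the gene. They took 1.399 and 3.52% of the unit's reads in Vehicle, 13.9 and 7.86% with AG120, 3.47 and 2.49% with AZA, and 12.1 and 12.4% with the combination. Outside these blocks the level was 1.04 and 3.94% in Vehicle, 1.68 and 0.968% with AG120, 1.80 and 1.53% with AZA, and 1.74 and 3.20% with the combination. There the libraries with AG120 overlapped those without it, and each treated group overlapped Vehicle, while the combination was above AG120 alone. At the 227 positions with 10 or more reads in at least 1 library on both sides, the mean was 8.92% with AG120 and 10.5% without it, the opposite direction. The blocks were picked by their level, so these values describe the unit and carry no test.

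Bbc3 (PUMA, a target of p53 that binds every survival member) had the smallest unadjusted p of any member. The rest of the gene (chr7:16308898-16317834, 439 positions) stood at 0.365 and 0.543% in Vehicle, 0.780 and 22.6% with AG120, 1.90 and 8.26% with AZA, and 13.2 and 23.4% with the combination. All 6 treated libraries were above both Vehicle libraries, and the 2 AG120 libraries were far apart. The combination mean was 18.3% ± 7.27 against 0.454% ± 0.126 in Vehicle (SD, n = 2), a difference of 17.8 points (edgeR adjusted p = 0.843). AZA alone had 5.08% ± 4.499 (edgeR adjusted p = 1) and AG120 alone 11.7% ± 15.4 (edgeR adjusted p = 1). Without AG120 replicate 2 the difference of AG120 alone from Vehicle fell from 11.2 to 0.326 points. With AG120 as a factor the means were 15.0% ± 10.6 and 2.77% ± 3.73 (SD, n = 4; edgeR adjusted p = 0.929).

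Much of the level in the combination and in AG120 replicate 2 came from 1 small block of Bbc3. The gene was read in 3 blocks. The first, around the starts of the RefSeq promoter windows, held 181 positions (chr7:16309369-16310705, mean 1.496%). The second, farther into the gene, held 234 positions (chr7:16312000-16314247, mean 1.001%). The third, with 24 positions, 9123 bp into the gene at its midpoint (chr7:16317250-16317792), was methylated in 99.3 to 100% of reads in each of the 7 libraries that read it. That block took 0 and 0.0488% of the unit's reads in Vehicle, 0.337 and 20.7% with AG120, 0.504 and 5.61% with AZA, and 13.2 and 22.4% with the combination. Outside it the level was 0.365 and 0.495% in Vehicle, 0.445 and 2.53% with AG120, 1.402 and 2.80% with AZA, and 0.0172 and 1.29% with the combination. Both AZA libraries stayed above both Vehicle libraries outside the block, as did combination replicate 2 but not replicate 1. This block too was picked by its level, so the values inside and outside it carry no test. At 99 positions read in both groups the combination mean was 1.95% and the Vehicle mean 0.757%, and at 140 such positions the AZA mean was 2.50% and the Vehicle mean 0.538%.

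**Figure D2:**
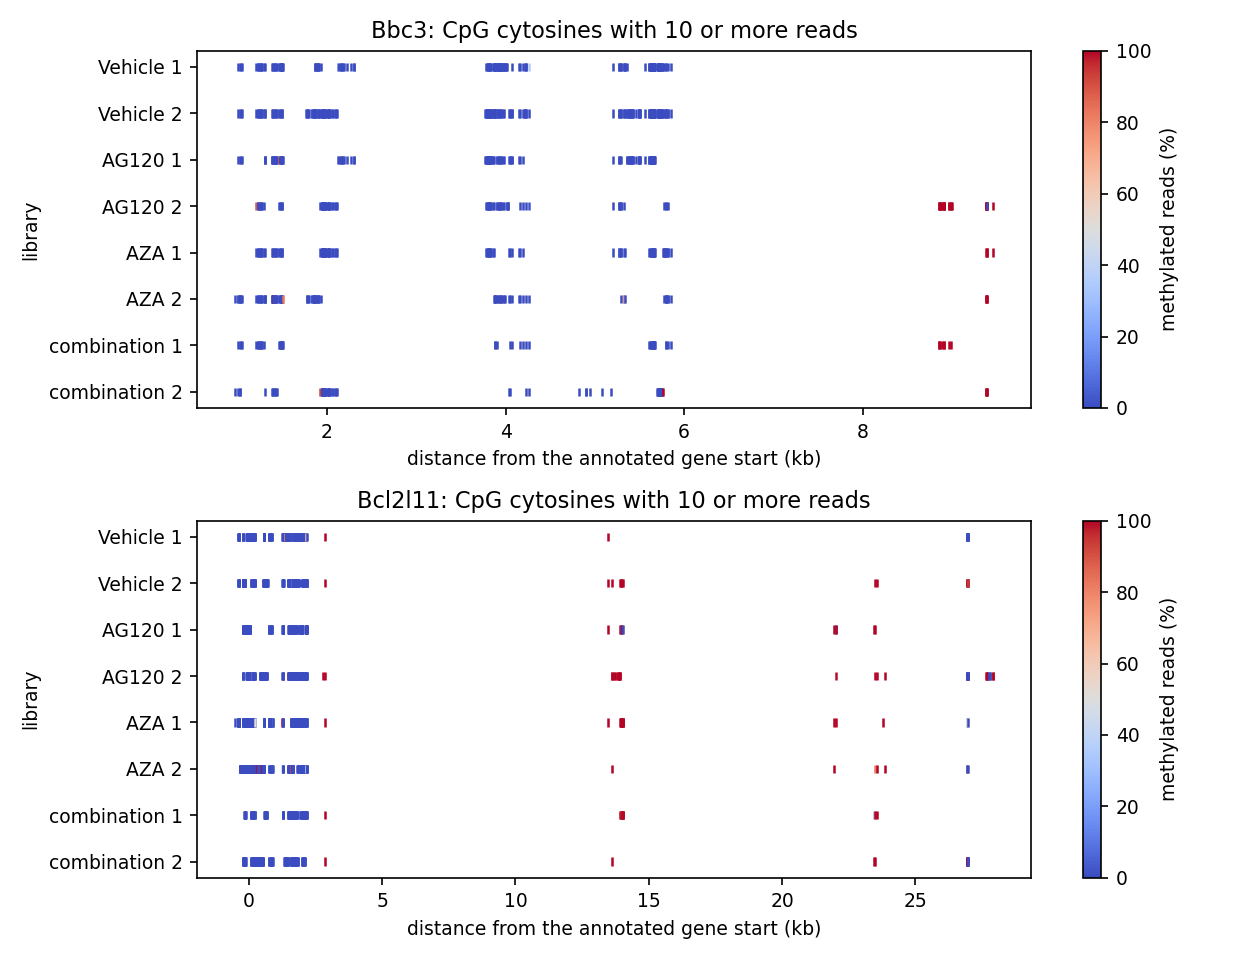
CpG cytosines with 10 or more reads in each library (rows) along Bbc3 and Bcl2l11, by distance from the annotated gene start (x axis, kb), coloured by the percentage of methylated reads. In Bbc3 the marks farthest from the start are methylated wherever they appear and are missing in both Vehicle libraries, while the marks nearer the start are mostly unmethylated in every library.

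**Figure D3:**
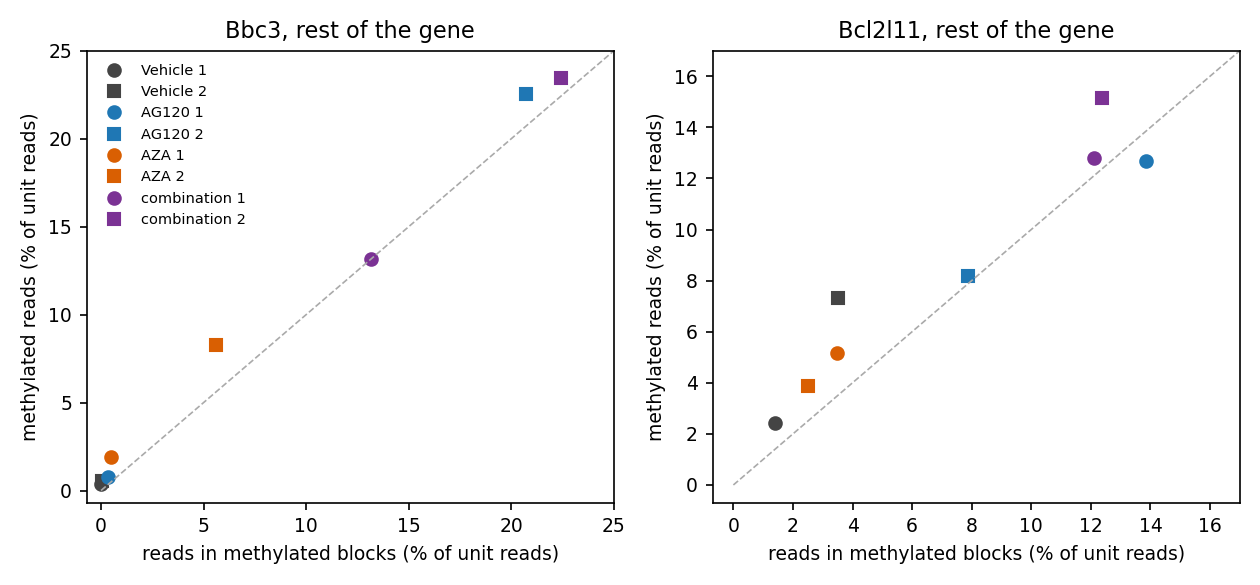
Share of a unit's reads that fell in its methylated blocks (x axis, % of reads) against the unit's level (y axis, % of reads methylated) for the rests of Bbc3 and Bcl2l11, 1 point per library. The dashed line marks equal values. The highest points of Bbc3 lie close to it, and others lie above it, such as Vehicle replicate 2 in Bcl2l11 (share 3.52%, level 7.31%) and AZA replicate 2 in Bbc3 (5.61 and 8.26%). Shares run from 0 to 22.4% in Bbc3 and from 1.399 to 13.9% in Bcl2l11. The blocks were picked by their level and their reads count on both axes, so points near the line are no test.

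Whole-library measures moved with AG120 too. Of all CpG calls, 34.1 and 32.6% were methylated in Vehicle, 41.5 and 49.9% with AG120, 39.2 and 36.9% with AZA, and 50.5 and 48.0% with the combination. Libraries had 90373925 to 130796962 CpG calls. Within the 18 member units, 1528 and 1677 positions were read in Vehicle, 1155 and 1212 with AG120, 1381 and 1460 with AZA, and 957 and 911 with the combination. Units of all genes without a methylated read made up 6.31 to 7.01% in Vehicle and 16.8 to 17.6% in the combination. The part of these library differences in the values of Bbc3, Bcl2l11 and Mcl1 was not tested. Of 2718 positions in the 18 member units, 88 were read in all 8 libraries and 549 in 1 library. The share of positions 2 libraries had in common was 31.3 to 52.98% of their union within a group and 30.3 to 49.9% between groups. A position was mostly all or nothing: of 6527 values with 10 or more reads, 87.8% were at exactly 0, 7.38% at exactly 100% and 4.83% between.

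Bid, which caspase 8 cleaves to link death receptors to mitochondria, had a start end (chr6:120916563-120918062, 82 positions) at 3.19 and 0.0488% in Vehicle, 2.63 and 0% with AG120, 2.98 and 1.48% with AZA, and 0.439 and 0% with the combination. The 0% of combination replicate 2 came from 76 reads and allows up to 3.95%, and that of AG120 replicate 2 up to 0.22%. AZA read above the combination in every library, at 2.23% ± 1.06 against 0.219% ± 0.310 (SD, n = 2; edgeR adjusted p = 1), but the limit of 3.95% is above both AZA libraries. At 14 positions with 10 or more reads on both sides the means were 0.519% with AZA and 0.397% with the combination. All other pairs of groups overlapped. The rest of Bid had 18 reads in AG120 replicate 1 and was not tested. In the other 7 libraries it ranged from 41.3 to 95.5%.

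Bad, a sensitizer that frees the effectors from Bcl2 and BCL-xL, was low at both ends. The start end (chr19:6940861-6942360, 186 positions, shared with Gpr137) was at 1.56 and 0.231% in Vehicle, 0 and 0.271% with AG120, 2.30 and 0.0279% with AZA, and 0.0186 and 4.59% with the combination. The 0% allows up to 0.0387%. In the Vehicle, AZA and combination groups 1 library held nearly all of the signal, and no pair of groups was apart. The far end (chr19:6951406-6952905, 133 positions) stayed at or under 0.608% except in AZA replicate 2, at 2.04%, and there both AG120 libraries (0.168 and 0.0740%) were below both Vehicle libraries (0.261 and 0.276%). The rest of Bad (chr19:6942361-6951405) was at or under 1.68% in 6 libraries and at 12.4% in AG120 replicate 1 and 10.8% in AZA replicate 1.

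Pmaip1 (NOXA, which binds Mcl1) has no strand in the tables used here, so its start end is not named. The low-coordinate end (chr18:66457604-66459103, 141 positions) was at 0 and 0.352% in Vehicle, 2.66 and 0.509% with AG120, 6.86 and 2.27% with AZA, and 0.125 and 0% with the combination. The 0% values allow up to 0.444 and 0.142%, and the 2.27% of AZA replicate 2 rests on 44 reads, with a 95% Wilson interval of 0.402 to 11.8%. AZA alone was above Vehicle and the combination in every library. Its mean of 4.57% ± 3.25 compared with 0.0624% ± 0.0883 for the combination (SD, n = 2; edgeR adjusted p = 0.942) and with 0.176% ± 0.249 in Vehicle (edgeR adjusted p = 1). The interaction of the drugs had an edgeR adjusted p of 1. The rest of Pmaip1 (chr18:66459104-66465058) was methylated in every library, from 57.5% (AZA replicate 2) to 100% (AG120 replicate 1), with a median of 86.1%.

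Bax and Bak1, the effectors that form the pore, had the highest of the 6 start ends that passed the read minimum. The start end of Bax (chr7:45466404-45467903, 59 positions) was at 0.868 and 1.96% in Vehicle, 15.6 and 8.49% with AG120, 3.89 and 0% with AZA, and 7.86 and 1.78% with the combination. The 0% allows up to 0.124%, and the 15.6% of AG120 replicate 1 rests on 205 reads (95% Wilson interval 11.3 to 21.2%). Both AG120 libraries were above Vehicle and the combination, with 12.1% ± 5.03 against 1.41% ± 0.772 in Vehicle (SD, n = 2; edgeR adjusted p = 1). Nearly all positions, 57, lay in a block just inside the gene (chr7:45466435-45466796). There AG120 replicate 2 was at 4.44%, above both Vehicle libraries but below the 7.86% of combination replicate 1. The flank beyond the far end of Bax (chr7:45459695-45460694), which overlaps Ftl1, was at or under 0.830% except in AG120 replicate 2, at 3.20%. Both combination libraries were at 0% there, on 500 and 166 reads that allow up to 0.6 and 1.81%, above both Vehicle values of 0.0358 and 0.313%.

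The start end of Bak1 (chr17:27028128-27029627, 47 positions, shared with Ggnbp1) was at 5.24 and 1.35% in Vehicle, 7.69 and 6.55% with AG120, 0 and 41.8% with AZA, and 15.2 and 0% with the combination. AZA replicate 2 stood far above the other 7 libraries, and the 2 libraries of AZA spanned the whole range of the unit. The range over the libraries was larger than in 87.4% of all start ends. The end was read in 2 blocks, 34 positions around the start (chr17:27028212-27028804, mean 2.36%) and 13 positions upstream of it (midpoint at −882 bp, chr17:27029469-27029549, mean 90.6%). The methylated block took 43.8% of the reads of AZA replicate 2, 20.3% of combination replicate 1, 7.69% of AG120 replicate 1, 0.306% of Vehicle replicate 2 and none in the other 4 libraries. In the block around the start AZA replicate 2 was at 6.07%, close to the 6.55% of AG120 replicate 2 and the 5.24% of Vehicle replicate 1. With AZA replicate 2 left out, the difference between AZA and Vehicle turned from 17.6 to −3.29 points.

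The rest of Bak1 (chr17:27020312-27028127, 65 positions, also with Ggnbp1) was methylated in all libraries, at 68.6 and 84.4% in Vehicle, 73.0 and 73.1% with AG120, 92.7 and 78.3% with AZA, and 91.0 and 87.6% with the combination. The combination was above Vehicle and AG120 in every library, at 89.3% ± 2.44 against 76.5% ± 11.2 in Vehicle (SD, n = 2; edgeR adjusted p = 1). At 12 positions with 10 or more reads on both sides, the combination and Vehicle differed by −0.0339 points. The far flank of Bak1 (chr17:27017812-27018811, 31 positions) was at 8.25 and 3.52% in Vehicle, 1.56 and 37.9% with AG120, 25.3 and 23.7% with AZA, and 5.61 and 22.0% with the combination. AZA alone was above Vehicle in both libraries, by 18.6 points (edgeR adjusted p = 1).

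Groups whose libraries do not overlap were counted over all member units, with a 0 taken as read. AG120 was above Vehicle without overlap in 9 of 18 member units (17.8% of all units) and below it in 1 (16.1%). The 9 were the start ends of Bcl2, Bax and Bak1, the low end of Pmaip1, and the rests of Bcl2, Mcl1, Bcl2l11, Bbc3 and Pmaip1. AZA was above Vehicle in 4 (14.5%) and below in 1 (18.3%), and the combination was apart from Vehicle in 5 (37.1%), above it in the rests of Mcl1, Bcl2l11, Bbc3 and Bak1 and with a lower reading in the flank of Bax, where the limits for 0 reach above Vehicle. Against AZA alone the combination was higher in 3 (18.4%) and lower in 5 (15.9%), and against AG120 alone higher in 3 (14.4%) and lower in 5 (15.9%). As factors, AG120 separated 2 member units upward (2.54%) and 0 downward (2.04%), and AZA 0 upward (0.966%) and 0 downward (1.5%). The 3 comparisons with Vehicle share its 2 libraries. For the 9 units with AG120 above Vehicle, some differences shrank or reversed at positions read in both groups. The start end of Bak1 went from 3.825 to −0.564 points and the rest of Bcl2l11 from 5.57 to −1.83. The rests of Bcl2, Bbc3 and Mcl1 went from 18.1, 11.2 and 0.223 to 2.70, 0.426 and 0.0646 points. The start ends of Bcl2 and Bax stayed above Vehicle by 4.07 and 6.90 points, on 40 and 19 such positions. The low end and rest of Pmaip1 did so by 2.78 and 11.9, on 18 and 20 positions. These differences rest on few positions. Over positions with 10 or more reads, the low end of Pmaip1 averaged 2.78% in AG120 replicate 1 (36 positions) and 0% in replicate 2 (18 positions). The AG120 libraries had 28 and 12 such positions at the start end of Bcl2, and 4 and 20 at that of Bax.

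By role, the median difference of AG120 from Vehicle was 1.38 points over the 4 units of the survival genes, 1.41 over the 9 of the BH3-only genes and 3.83 over the 5 of the effectors. For AZA the medians were −0.386, 0.850 and 8.99 points, and for the combination 0.558, 0.0535 and 4.33 points. At positions with 10 or more reads on both sides the effector medians were 0.812 points for AG120, 0.806 for AZA and −0.0339 for the combination. Over the member units at such positions the medians were 1.76, 0.052 and −0.1925 points, on 18, 18 and 17 units. With all positions used, the medians over all 18 units were 1.72, 0.734 and 1.45 points, and over all 34574 units 0.205, −0.0955 and 0.0886 points. In size regardless of sign, the member median was 2.74 points for AG120, 2.95 for AZA and 2.45 for the combination, against 4.08, 3.78 and 4.69 over all units. A difference of 10 points or more was seen in 5, 4 and 3 of the 18 member units and in 28.9, 26.7 and 32.2% of all units.

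**Figure D4:**
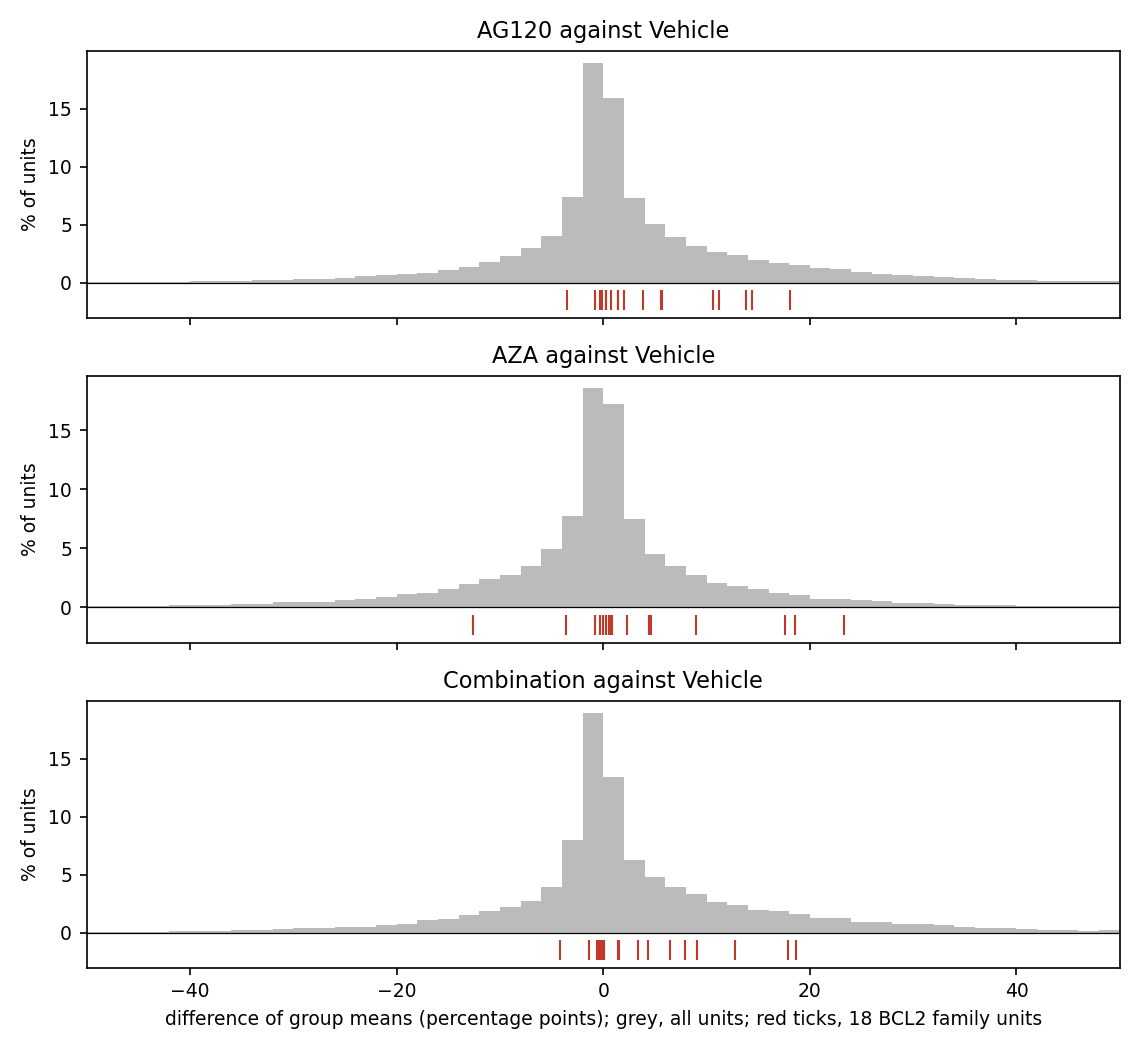
Differences of the group means from Vehicle in percentage points (x axis) for AG120, AZA and the combination. Grey bars give the share of all 34574 units in each bin (y axis, %) and red ticks the 18 BCL2 family units, which lie between −12.6 and 23.4 points and fall on both sides of 0 in each panel.

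Genes up- and downstream of the family were read in the same way, in lists named by function, and 0 of their units passed the threshold in any of the 8 contrasts. The other BCL2 family genes were measured in 12 of 15 genes and 20 units, and the combination differed from Vehicle by a median of 0.257 points, with 10 units higher and 10 lower. The apoptosome, caspases and their inhibitors (20 of 21 genes, 33 units) had a median of 0.910 points, the death receptor pathway (8 of 9 genes, 14 units) of −1.28 points and the p53 pathway (8 of 8 genes, 14 units) of 0.914 points. The units with the smallest p were 3 start ends that held no methylated read in the combination. Dapk1, a death-associated kinase (chr13:60600723-60602222), had 2.27% ± 2.28 in Vehicle and 0% in the combination, whose reads allow up to 0.0625% (edgeR adjusted p = 0.825). Birc6, a giant inhibitor of apoptosis (chr17:74527254-74528753), had 0.704% ± 0.283 and 0%, up to 0.0238% (edgeR adjusted p = 0.840). Apaf1, the scaffold of the apoptosome that cytochrome c activates (chr10:91082244-91083743), had 3.25% ± 0.289 and 0%, up to 0.0699% (edgeR adjusted p = 0.841). Units of all genes without a methylated read were most frequent in the combination, as given above, and the part of this in these 3 start ends was not tested.

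Methylation does not measure expression, so the cell type could be compared with its label only loosely. The start ends of the progenitor genes Kit, Cd34, Myb and Gata2 had mean levels of 6.16, 1.94, 1.001 and 1.52%. Itgam, which encodes Cd11b, was measured inside the gene alone, at 92.1%, and Elane and Cd3e had no unit with enough reads.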

How the data were processed

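The data are RRBS libraries of 8 samples. Per the file headers, the authors deposited raw counts of methylated and unmethylated reads at each CpG cytosine, not normalized. Per the submitters' processing notes the tools were edgeR 3.32 and R 4.0.2, SAMtools 1.4.1, Bismark 0.22.3, Trim Galore 0.4.4 and bcl2fastq 2.17.1.14, with mm10 as the build and no roles stated. For deduplication, read filters and conversion no source used here gives a setting. Reads that PCR copied from 1 molecule are not independent, so that intervals and limits for a 0 (3 counts) cover counting error alone.

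Counts of both strands were summed per unit, and units with 20 or more reads in every library were kept. All 34574 units of the 8 libraries were fitted together with edgeR 4.0.16 (R 4.3.3), using 1 term for each library and 1 for the methylation of each group. The main test was the robust quasi-likelihood test (two-sided, false discovery rate 0.05). On simulated data it recovered nearly all changes when libraries of a group varied little, and few or none when they varied more. Which of these settings the 8 libraries resemble was not tested, so 0 calls do not show that no unit differed. Alternatives were the likelihood ratio test, limma 3.58.1 (pseudocount 2), DESeq2 1.42.0, a replicate block, other read minimums and windows, and leaving out each library. Wilson intervals of the 144 member values were 0.939 points wide at the median and 11.8 at most. Named were all 10 members and, of the listed apoptosis genes, those past the threshold or, failing that, the 3 of smallest p for the combination against Vehicle. The members and the gene lists were chosen with earlier results of these data known.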

Additional observations from a re-analysis of the deposited data

How the results depend on the processing

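Whether a unit was called depended on the test. In place of 0 units by the edgeR quasi-likelihood test, the edgeR likelihood ratio test and DESeq2 called 317 and 348 for AG120 against Vehicle, 212 and 168 for AZA against Vehicle, and 651 and 813 for the combination against Vehicle. They called 709 and 872 for the combination against AZA, 679 and 832 for the combination against AG120, 658 and 915 for AG120 as a factor, 422 and 555 for AZA as a factor, and 341 and 447 for the interaction. Of the 18 member units DESeq2 called 1 (the rest of Bbc3, combination against Vehicle) and the other tests 0. Leaving out each library gave 0 units in every contrast except AG120 as a factor, with 0 to 4 (4 without AG120 replicate 1), and 0 member units throughout; the lone library of a group was then taken to vary like the others. Limma, read minimums of 1 and 50, a minimum of 3 positions and the replicate block changed no call. The replicate block gave 0 units and 0 member units in every contrast, and same-numbered libraries did not deviate together (correlations −0.00895 to 0.0148). Of 30 level differences against Vehicle, over gene ends and the rests of Bbc3 and Bcl2l11, leaving out a library changed the sign of 21 of 120 values. A window of 2000 bp moved 9 of 24 by more than a group's SD and turned the sign of 7, and one of 500 bp moved 1 of 24 and turned 4. In 2 alternatives chosen after seeing the data, each library's own positions with 10 or more reads moved 9 of 29 and turned 5, and matched positions moved 11 of 29 and turned 11. The combination's difference from Vehicle over the rest of Bbc3 went from 17.8 points to 1.195, and over the rest of Bcl2l11 from 9.10 to −0.672. A mean over positions with 10 or more reads in every library was not run for the gene ends, as 0 positions qualified.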

Other observations

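Some stretches of the family fell short of the read minimum and entered no test. Mcl1 was almost free of methylation around its start, while the flank beyond its far end was methylated in 66.7 to 100% of 12 to 72 reads in the 4 libraries with AG120 and had 0 reads in the 4 without it. Inside Bax, 6 positions were methylated in 98.3 to 100% of reads wherever they were read, against 0 to 15.6% at the start end. The start end of Bcl2l1 held 3 positions at 74.5 to 100%, whereas the dense block inside the gene averaged 3.96%. Within the tested rest of Bbc3, the first promoter window (chr7:16309333-16309632) was at 29.8% in AG120 replicate 2 and at 0% in the 7 other libraries, on 289 to 1556 reads.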
